A study of Caenorhabditis elegans with 3 samples.

Results

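The heterochronic genes set the order of developmental events in Caenorhabditis elegans larvae, and 10 of them were examined for binding by the chromatin protein EGL-27: lin-14, lin-28, lin-41, lin-42, daf-12, alg-1, kin-20, hbl-1, lin-29 and let-7. The genes were listed by name for their role in this pathway, but the list was drawn up with earlier results of these data known. Of the 10, 9 code for protein among the 19973 protein-coding genes on nuclear chromosomes, and let-7 is a microRNA gene. The data were lists of ChIP-seq peaks from first-stage (L1) larvae. Whole worms of both sexes of strain OP177 were used, with the unc-119(ed3) allele on chromosome III. Its inserted array, wgIs177, expresses EGL-27 with a GFP-FLAG tag at the C-terminal end. Immunoprecipitation was directed at the tagged protein. The 3 biological replicates formed a single group with no second condition, and no sample without the tag was used here. The labels give a stock centre as the source of the worms for replicates 1 and 2, and the submitting laboratory for replicate 3. Binding in a few cells of the larva and weak binding in all of them cannot be told apart in such material, and binding by untagged EGL-27 was not measured.

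Heterochronic genes were found through mutants that skip or repeat larval fates, above all in the seam cells of the epidermis. Early fates need lin-14, lin-28 and hbl-1, which microRNAs of the lin-4 and let-7 families later turn down. Late in larval life let-7 lowers lin-41, and the transcription factor LIN-29 then brings on the adult epidermis. The nuclear hormone receptor DAF-12 ties this order to the hormone dafachronic acid. LIN-42 is the worm relative of the circadian protein Period, and KIN-20 is the relative of the casein kinase that acts on Period in flies. EGL-27 is a relative of the MTA subunits of nucleosome remodelling and deacetylase complexes.

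A locus ran from 10000 bp upstream of the outermost 5′ end of the gene, or from the next protein-coding gene where that was nearer, to the end of the gene. The authors' list of reproducible peaks, thresholded by the irreproducible discovery rate (IDR), held 705 peaks with signal values from 31.5 to 252.5. Of the 10 loci, 6 held at least 1 IDR summit, against 3.86% of all protein-coding genes. These were kin-20 with 3 summits and lin-42, daf-12, alg-1, lin-28 and lin-41 with 1 each, which makes 8 summits in all. The shortest of the 10 loci was 3.7 kb, well under their median of 15.6 kb. Among protein-coding genes with loci at least as long as that shortest one, the share with an IDR summit was 6.14%. Of the genes on chromosome X it was 6.26%, and 3 of the 6 listed genes on that chromosome held an IDR summit. No IDR summit lay in the loci of lin-14, hbl-1, lin-29 or let-7. The share of all genes has an exact 95% binomial interval of 3.59% to 4.13%, which covers counting error only. The interval treats genes as independent, although neighbouring genes can share a summit. A stricter rule that left out 1 replicate and asked for a top-list peak of both others over the summit (a top list is the 705 peaks of highest signal) kept 239 to 305 of the IDR peaks. It gave 3 genes without replicate 2, 4 without replicate 3 and 5 without replicate 1, where the share of all protein-coding genes was 1.62%, 1.3% and 1.65%. Since the genes were chosen with earlier results known, these counts describe the genes listed, and no test was made over them.

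**Figure D1:**
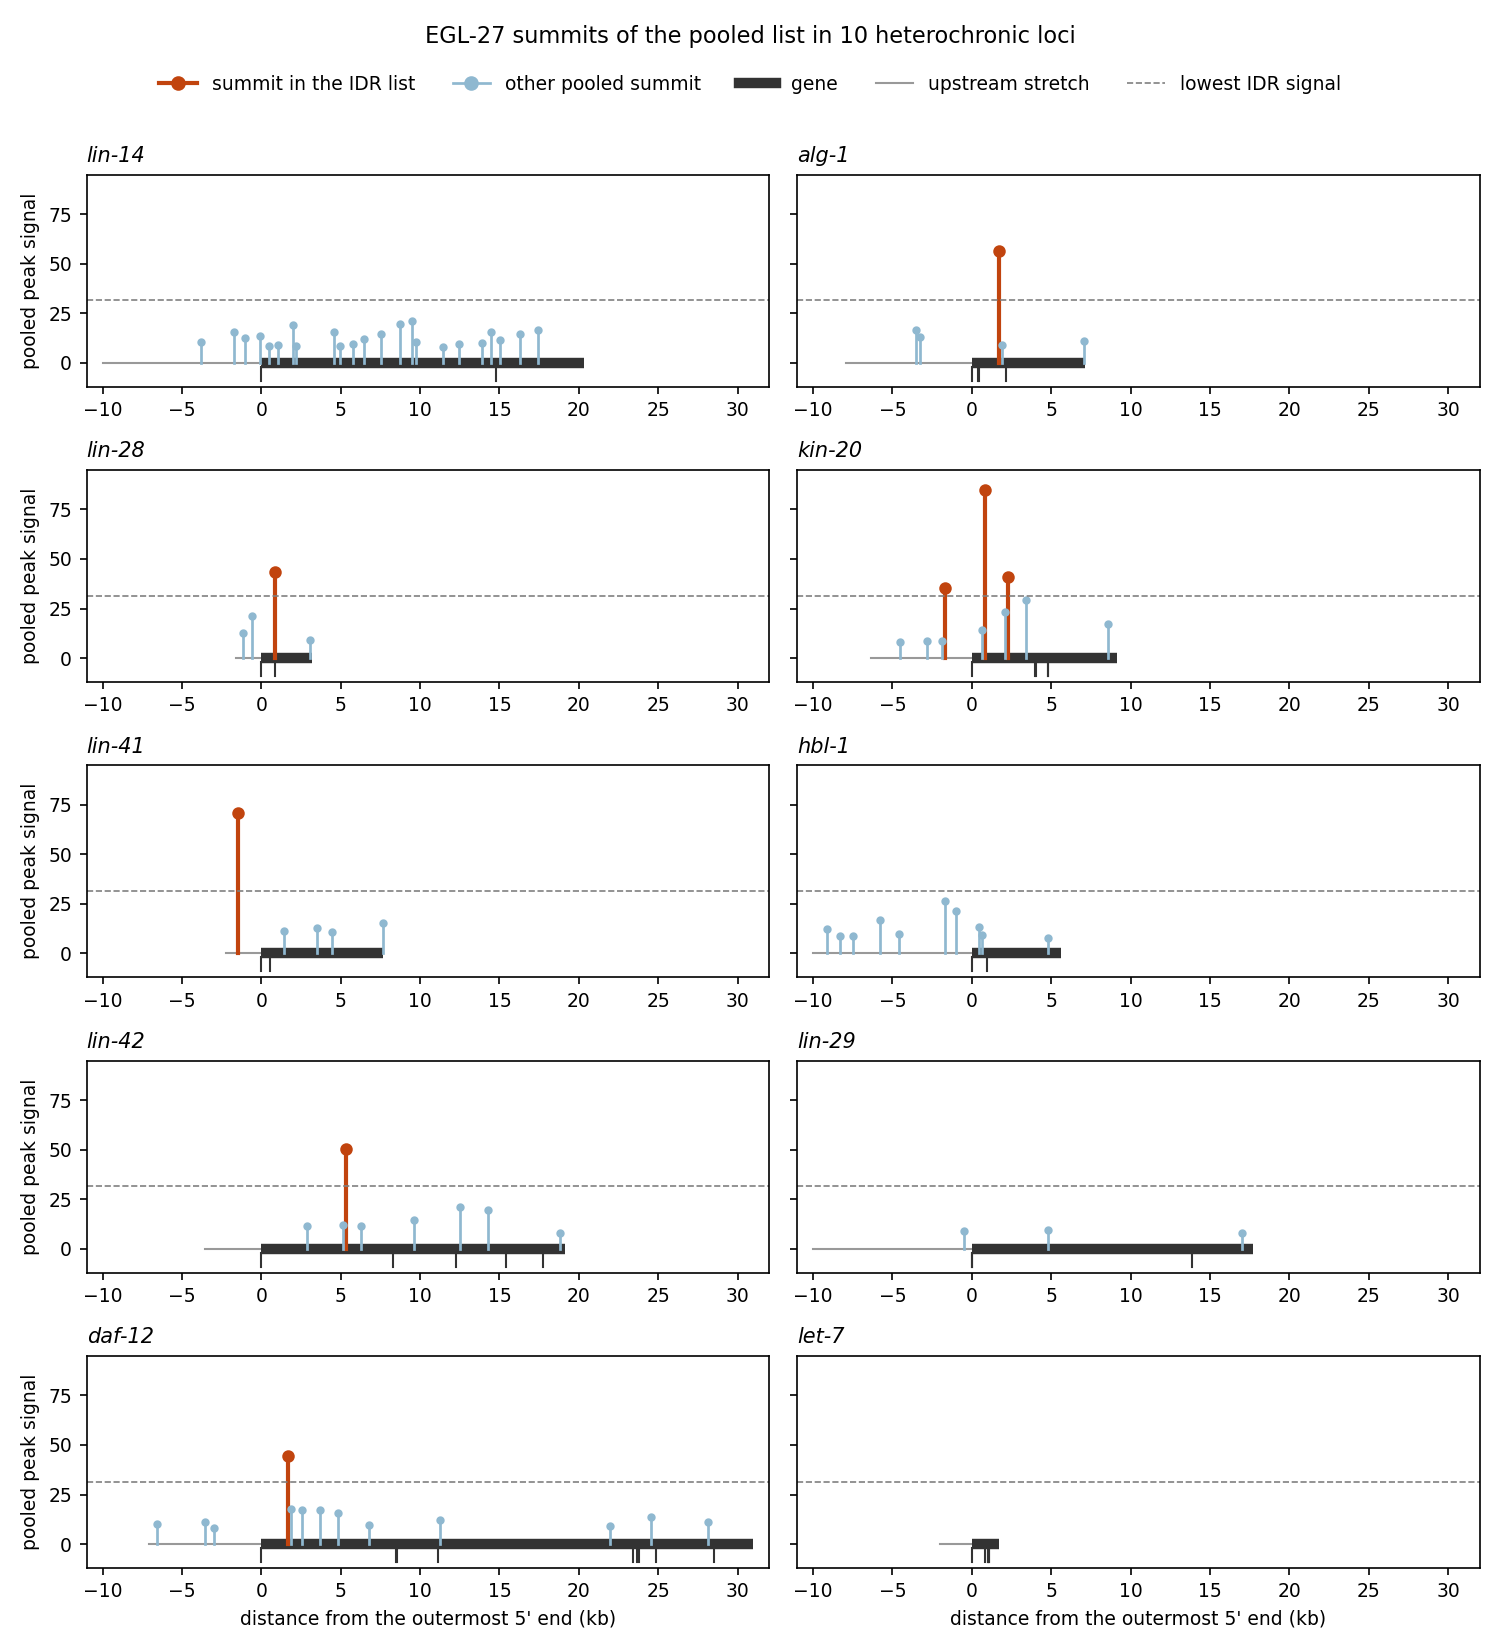
Summits of the pooled list in the 10 loci, by distance from the outermost 5′ end of the gene (kb, upstream to the left) and by the authors' pooled signal; ticks under the black bar mark annotated 5′ ends. The dashed line is the lowest IDR signal, 31.5. The highest summits of the set, at kin-20 (85) and lin-41 (71.1), lie within 2 kb of the outermost 5′ end, while lin-14 holds 23 summits that all stay under the line.

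The relaxed lists, which keep background peaks, were set beside the IDR list, and recurrence of a summit was read from those of the replicates. They held 23218 peaks for the pooled replicates and 15286, 30000 and 30000 peaks for replicates 1, 2 and 3. The 705 IDR peaks were the 705 of highest signal in the pooled list. The pooled rank of an IDR summit is thus its IDR rank and says nothing more of recurrence. A summit in the pooled list was a weak criterion, since 55.6% of all protein-coding genes held one and so did 9 of the 10 listed genes. The top list of each replicate, as long as the IDR list, was therefore the closer comparison. A summit of the top list lay in 4 of the 10 loci in replicate 1, in 8 in replicate 2 and in 5 in replicate 3. The shares of all protein-coding genes were 3.52%, 3.75% and 3.63%. Only kin-20, daf-12 and lin-41 of the 10 held a top-list summit in every replicate, where 1.18% of all protein-coding genes did. Without replicate 1 the count of 3 genes became 5, with lin-42 and alg-1 added, and the share of all protein-coding genes became 1.86%. Replicate 1, the shortest list, had top-list summits at kin-20, daf-12, lin-28 and lin-41. Replicate 2 had them at every listed gene except lin-29 and let-7.

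**Figure D2:**
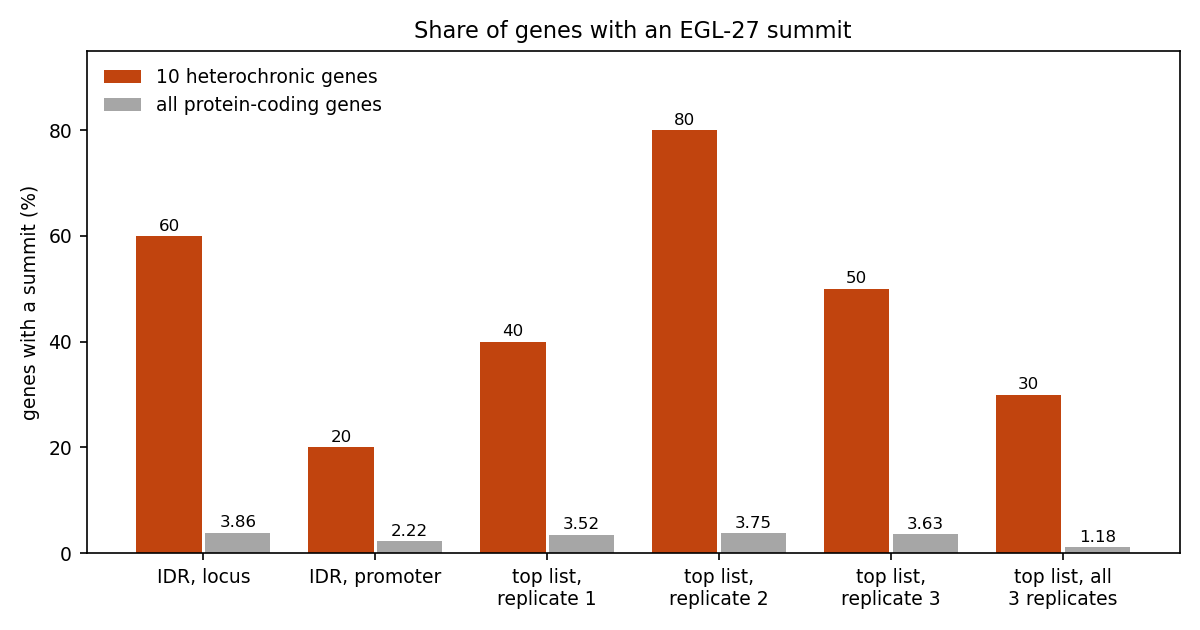
Percent of genes with an EGL-27 summit of each kind, for the 10 heterochronic genes and for all 19973 protein-coding genes. The share of heterochronic genes is 60% for an IDR summit in the locus and 20% for one in the promoter window, and runs from 40% in replicate 1 to 80% in replicate 2 for the top lists. Each bar over the 10 genes moves by 10 percentage points with 1 gene.

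Of the 10 loci, that of the kinase gene kin-20 held the strongest IDR summit and the most IDR summits, though the pooled list had more summits at lin-14 (23) and daf-12 (13) than at kin-20 (10). Its 3 IDR summits placed it among the 0.0801% of protein-coding genes with 3 or more, which is 16 genes. The highest had a pooled signal of 85, rank 58 of 705, in the first intron of the longest transcript and 840 bp downstream of the outermost 5′ end. It ranked 147 in replicate 1 with a signal of 13.6, 47 in replicate 2 with 34.8 and 114 in replicate 3 with 36.9. All 3 replicates thus placed it high in their top lists, and their summits lay within 17 bp of the pooled one.

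The second kin-20 summit lay in the same intron, 1432 bp further into the gene, with a pooled signal of 41.1 and rank 396. It ranked 86 in replicate 1 (16.3) and 428 in replicate 3 (21.0), and no peak of replicate 2 covered the summit itself. Replicate 2 did have a top-list peak at rank 406 (16.8) that overlapped the IDR peak, with its own summit 218 bp away. The third was intergenic, 1702 bp upstream of the outermost 5′ end and 2542 bp from the strongest summit, with a pooled signal of 35.3 and rank 562. It ranked 278 in replicate 1 (10.7), 2071 in replicate 2 (10.8) and 901 in replicate 3 (15.0), so that it entered only the top list of replicate 1. The replicate 1 and replicate 3 summits at this peak fell in an annotated non-coding gene. The third summit also lies within the locus of the neighbouring gene jud-4. One more pooled summit, near an internal 5′ end of kin-20 at 29.3 and rank 838, fell just under the IDR list.

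The bases around the 3 kin-20 summits are printed because each differs from the next in simple repeats. They are 101 bases of the plus strand of build ce11 centred on the summit, read from the RefSeq genome WBcel235. Capitals mark the 6-mer GAGAGA or its reverse complement TCTCTC, and kin-20 itself is on the minus strand. Exons of annotated non-coding RNA genes overlap the upstream window and the window further into the intron.
kin-20, strongest summit, first intron, chrX:15276874-15276974: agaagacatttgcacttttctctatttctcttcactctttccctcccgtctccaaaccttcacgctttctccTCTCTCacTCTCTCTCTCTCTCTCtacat
kin-20, further into the first intron, chrX:15275442-15275542: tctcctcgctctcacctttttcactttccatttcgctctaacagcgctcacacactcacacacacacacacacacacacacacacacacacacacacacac
kin-20, upstream, chrX:15279416-15279516: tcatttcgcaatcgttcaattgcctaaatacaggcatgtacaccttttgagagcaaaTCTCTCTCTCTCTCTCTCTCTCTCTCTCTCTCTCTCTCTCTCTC
The upstream window ends in an unbroken run of alternating T and C of 44 bases, cut off by the end of the window. The window further into the intron ends in an alternating C and A run of 45 bases, and the strongest holds a run of 18 bases of alternating T and C. Runs of at least 20 bases were rare among the 704 nuclear IDR summits, at 8 windows (1.14%) for GA or TC and 5 windows (0.71%) for CA or TG. The run lengths were measured after the sequences had been seen, and the part that such repeats play in the signal was not tested.

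The Period relative lin-42 held 1 IDR summit deep in its first intron, at chrII:1246837-1247226. It lay 5327 bp downstream of the outermost 5′ end and 2997 bp upstream of the nearest internal one, in an intron of 8173 bp. Its pooled signal was 50.3, rank 243. The replicates ranked it 5790 (3.5), 119 (25.6) and 453 (20.6), so that replicates 2 and 3 held it in their top lists and replicate 1 held only a low peak over it. The summits of these 3 peaks nevertheless fell within 16 bp of the pooled one. A second replicate 1 peak, at rank 1349 (6.0), overlapped the IDR peak without covering its summit and was also outside the top list. Short non-coding RNA genes are annotated over the same bases of the intron. The best summit of replicate 1 in the locus was another intronic one at rank 1174. The pooled list had 8 summits in the locus of lin-42, of which 7 lay in an intron of the gene.

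The receptor gene daf-12 spans the longest of the 10 loci, at 38.1 kb, and its single IDR summit lay near the start, in the first intron of 8353 bp. The summit was 1695 bp downstream of the outermost 5′ end, with a pooled signal of 44.6 and rank 323. It ranked 156 (13.2), 550 (15.3) and 358 (22.7) in replicates 1, 2 and 3, inside the top list each time. Of the other 12 pooled summits in the locus none was in the IDR list, and the second highest came from an overlapping peak.

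The daf-12 window is shown because it alone among the 8 held the 9-mer CTGCGTCTC, here as its reverse complement GAGACGCAG in capitals, on the plus strand of build ce11 from the RefSeq genome.
daf-12, first intron, chrX:10637553-10637653: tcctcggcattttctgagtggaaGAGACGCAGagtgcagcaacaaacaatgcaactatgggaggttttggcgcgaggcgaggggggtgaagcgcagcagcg
The 9-mer was present within 50 bp of 15.2% of the 704 nuclear IDR summits. The 6-mer GAGAGA was present at 3 of the 8 heterochronic summits, 2 of them at kin-20 and the other at alg-1, against 41.3% of all. The E-box CACGTG was present at none of the 8, against 6.53% of all. A GATA site (the word GATA with A or T just before it and A or G just after it) was present at none of the 8 either, against 19% of all. All motifs were searched on both strands in the same 101 bases, and a word missing from these windows says nothing of binding by any factor. The windows did not stand out in base composition, with a median of 51.5% G and C against 48.5% for all IDR summits.

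The Argonaute gene alg-1, whose protein carries the microRNAs of this pathway, held 1 IDR summit at chrX:13950611-13951000. It was 456 bp upstream of an internal 5′ end and 1696 bp downstream of the outermost one. In 1 annotated transcript this base is in the first intron, of 1739 bp, and in another it is in the 5′ untranslated part of the first exon. The pooled signal was 56.3, rank 185. Replicates 2 and 3 ranked it 186 (21.9) and 162 (31.8), while no peak of replicate 1 covered it. The only summit of replicate 1 in the locus was at rank 15005 with a signal of 2.0. The alg-1 peak therefore rests on replicates 2 and 3.

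**Figure D3:**
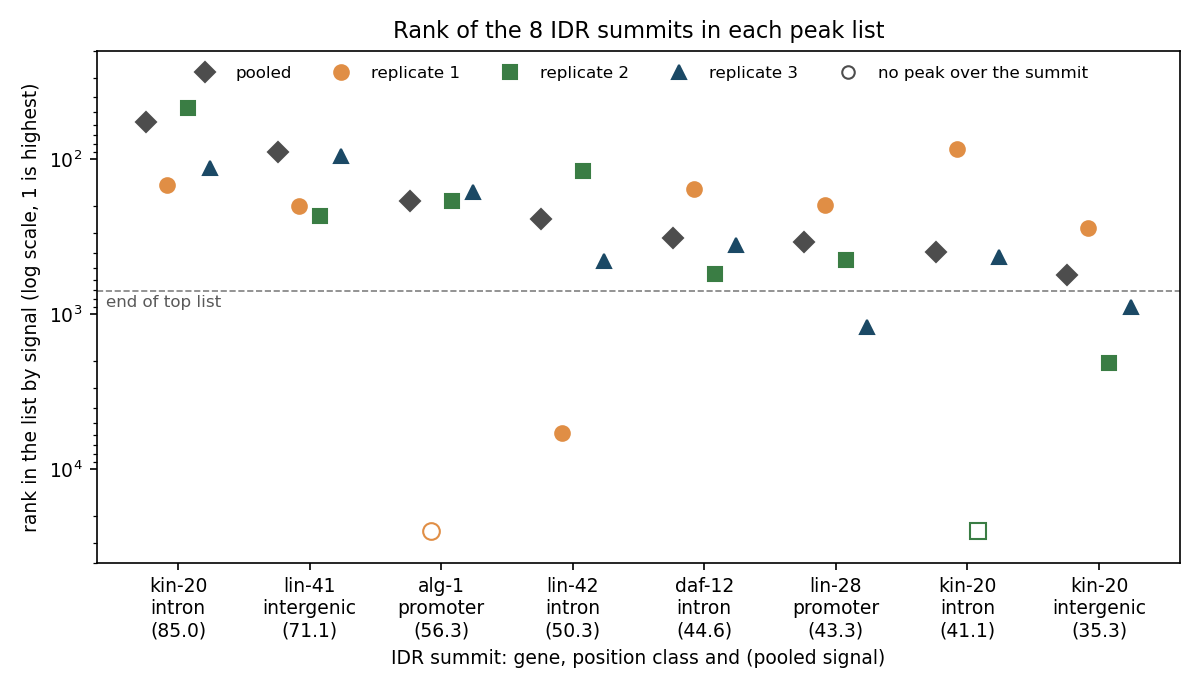
Rank of the 8 IDR summits (columns, with position class and pooled signal) in the pooled list and in the list of each replicate, on a log scale with the highest rank at the top. The pooled rank equals the IDR rank, since the IDR list is the top 705 of the pooled list. Open symbols at the bottom mark replicates with no peak over the summit. The strongest kin-20 summit, lin-41 and daf-12 lie above the dashed end of the top list (705) in every replicate, and the other 5 fall below it or are missing in at least 1.

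Over the 8 summits and 3 replicates, 22 of 24 lookups found a peak over the summit and 18 found one in the top list. For all 704 nuclear IDR summits, 1997 and 1313 of 2112 lookups did. A peak of all 3 relaxed lists covered 6 of the 8 summits (75%), against 83.9% of all. All 3 top lists held 3 of the 8 summits (37.5%), where they held 198 of all 704 nuclear IDR summits (28.1%). At least 2 top lists held 7 of the 8 (87.5%), against 64.3% of all. The summit of the replicate lay a median of 15 bp from the pooled summit, with a range of 0 to 114 bp, and the median over all IDR summits was 27 bp.

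The RNA-binding protein LIN-28 blocks the maturation of let-7, and its gene held 1 IDR summit at chrI:8409747-8410136. The summit lay 22 bp upstream of an internal 5′ end and 862 bp downstream of the outermost one, in the first intron of the longer transcript. Its pooled signal was 43.3, rank 341. The replicates ranked it 198 (12.1), 449 (16.3) and 1206 (13.2), so that it missed the top list of replicate 3. In all 3 replicates it was the best summit of the locus, which at 4.8 kb is shorter than any other of the set except let-7. Among the 8 summits it was by far the nearest to an annotated 5′ end.

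The translational repressor gene lin-41, the classical target of let-7, held the second highest summit of the set. It was intergenic at chrI:9343745-9344134, 1444 bp upstream of the outermost 5′ end, with a pooled signal of 71.1 and rank 90. The replicates ranked it 200 (12.1), 233 (20.3) and 96 (38.4), and their summits lay within 38 bp of the pooled one. The peak was in the locus of no other protein-coding gene, and the nearest 5′ end of another gene was 5636 bp away. The other 4 pooled summits of lin-41 lay within the gene and had no IDR call.

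The remaining genes of early fate, lin-14 and hbl-1, held no IDR summit but many weak ones. The nuclear factor LIN-14 is encoded in a locus of 30.3 kb with 23 pooled summits in 20 separate regions, 19 of the summits in introns of the gene. Its best pooled signal was 20.9, rank 1797, under the IDR minimum of 31.5. The best summits of replicates 1, 2 and 3 had ranks 819 (7.2), 568 (15.2) and 1001 (14.4), at 3 different places in the introns. A lower replicate 2 summit, 2019 bp downstream of the outermost 5′ end at rank 1731 (11.3), lay in peaks of all 3 replicates. The peaks of replicates 1 and 3 over it had ranks 819 and 1397. Of the 23 pooled summits, 2 lay in peaks of all 3 replicates, where 8.63% of all nuclear pooled summits did. The locus had 0.759 pooled summits per kb, more than 98.4% of the 2864 protein-coding genes with loci of at least 10 kb. The pooled list keeps background peaks, and this density counts them all alike. The authors' −log10 q-values of the 4 highest pooled summits of lin-14 were 1.63, 1.31, 1.24 and 0.75, against 2.36 for every IDR peak. Only 7 protein-coding genes, lin-14 included, held as many pooled summits. The nearest IDR summit beyond it was 120202 bp away.

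The hunchback relative hbl-1, on chromosome X as lin-14 is, had 10 pooled summits, 7 of them upstream of the gene. The best had a pooled signal of 26.6, rank 1034, at 1705 bp upstream, and the next had 21.2, rank 1719, at 1005 bp upstream. Replicate 2 ranked a summit 1110 bp upstream 369 (17.2). Replicate 3 had one 1723 bp upstream at rank 996 (14.4), and another at rank 929 (14.8) on the edge of the upstream stretch, 9999 bp away. Replicate 1 had no summit better than rank 7502 (3.1) in the locus. A peak at rank 301 of replicate 1 did cover the position at the edge, but its own summit was beyond the 10000 bp. The nearest IDR summit outside the locus was 13495 bp away and belongs to puf-9. With 0.64 pooled summits per kb, hbl-1 was denser than 96.1% of the long loci, close to kin-20 at 96.2%. Background peaks count here too, and the −log10 q-values of the 3 highest pooled summits of hbl-1 were 2.36, 1.71 and 0.87.

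The late-acting genes lin-29 and let-7 were the least marked of the set. The zinc finger factor gene lin-29 had 3 pooled summits in 27.7 kb, the best at rank 15346 (9.5), and its best ranks in the replicates were 5654 (3.6), 5193 (8.4) and 12121 (5.3). Its 0.108 pooled summits per kb exceeded 24.7% of long loci. The microRNA gene let-7 (chrX:14743590-14745321, minus strand) had a locus of 3.7 kb, since the next gene starts 1981 bp upstream. It held no pooled summit, and the only replicate summit was at rank 13360 (5.1) of replicate 3, inside the annotated gene. An IDR summit of 45.8, rank 304, lay 8382 bp upstream of let-7, past the next gene and in the promoter of sucl-1.

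**Figure D4:**
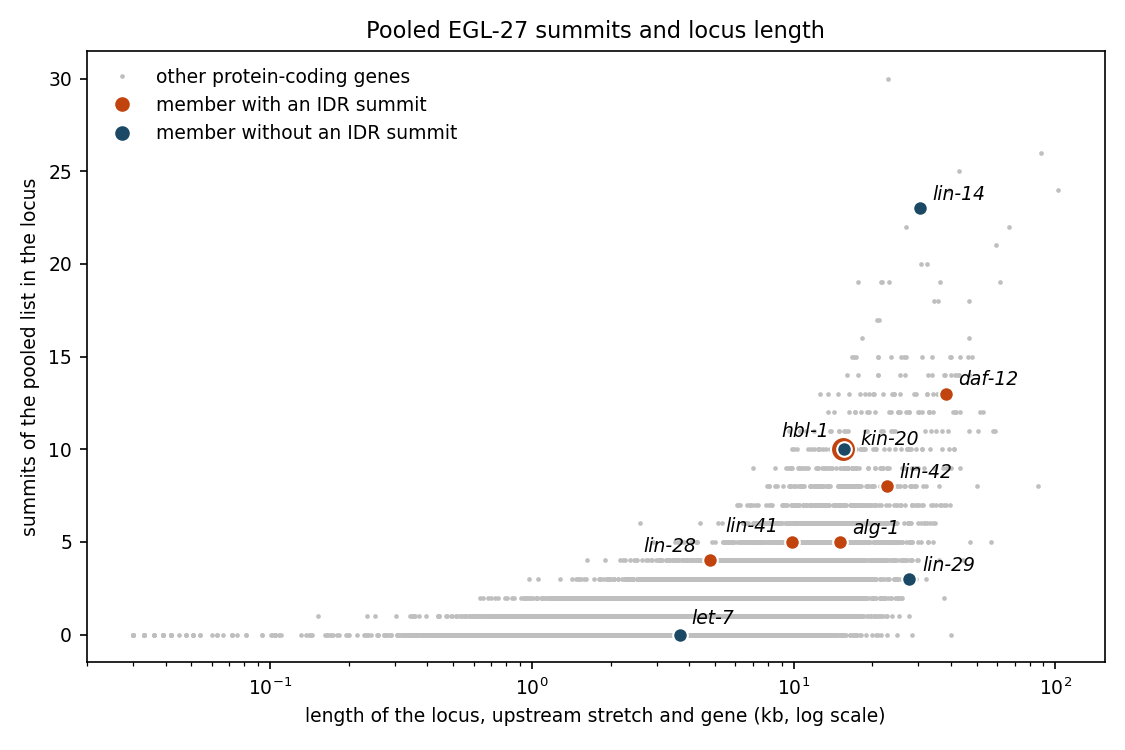
Number of pooled summits in the locus against its length (kb, log scale) for every protein-coding gene (grey) and the 10 heterochronic genes; kin-20 is drawn as a wide ring around hbl-1, since both hold 10 summits in about the same length. At 23 summits lin-14 lies near the top of the cloud, while lin-29, at about the same length, holds 3.

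The 10 loci together covered 183.4 kb and held 0.0436 IDR summits per kb, where the loci of all protein-coding genes held 0.00815 per kb and those of at least 10 kb held 0.00811. For pooled summits the values were 0.442, 0.244 and 0.258 per kb. The median locus length was 15.6 kb for the 10 genes and 3.5 kb for all. The best pooled rank in the locus had a median of 323 over the 9 protein-coding members, all of which had a summit. Over the 11112 protein-coding genes with a summit it was 7597.5. A longer locus can hold more summits and so a better best rank, and neither these medians nor the percentages that follow were matched for locus length. Of the 9, kin-20 and lin-41 had a better rank than 99.7% and 99.5% of all protein-coding genes, lin-14 than 90.9% and lin-29 than 56.1%. Genes without a pooled summit counted as worse here, and only 55.6% of protein-coding genes held one. The lin-29 rank, 15346, was worse than the median of 7597.5 among those with a summit.

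More of the heterochronic summits were in introns, and fewer near 5′ ends, than among IDR summits as a whole. With a promoter defined as 1000 bp upstream to 500 bp downstream of an annotated 5′ end, 2 of the 8 heterochronic IDR summits were in promoters (25%), 4 in introns (50%) and 2 in intergenic sequence (25%). Of the 4 in introns, 2 lay in the same intron of kin-20, the stronger of them 840 bp downstream of the outermost 5′ end. Of all 704 nuclear IDR summits 52.7% were in promoters, 16.6% in introns and 24.9% in intergenic sequence. The 2 promoter summits were those of lin-28 and alg-1, both at internal 5′ ends, and 2.22% of all protein-coding genes had an IDR summit in their own promoter. None of the 8 lay within the promoter of an outermost 5′ end. The 81 pooled summits of the set had 23.5% in promoters and 42% in introns, where all 23217 nuclear pooled summits had 38.7% and 22.1%. Of the 81, lin-14 alone held 23 and daf-12 held 13, so a few long genes weigh heavily in these shares. The introns that held these IDR summits were 1322 bp (lin-28) to 8353 bp (daf-12) long, and the part of gene length in these shares was not tested.

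Of 27 other genes of the pathway, 8 held an IDR summit in their locus (29.6%), with 11 summits between them. Of the 22 that code for protein 7 did (31.8%), against 3.86% of all protein-coding genes, and of the 5 non-coding ones 1 did. Among protein-coding genes with loci of at least 3.7 kb the share was 6.14%, and the counts were not otherwise matched for locus length. The list of 27 genes too was drawn up with earlier results known. The highest was at puf-9, whose Pumilio-family protein is a translational repressor, at 139.9 and rank 6, 342 bp upstream of the 5′ end and shared with the locus of dct-11. It ranked 46 (19.5), 32 (44.8) and 3 (80.7) in the replicates. The transcriptional corepressor gene din-1, whose product binds DAF-12, had 4 IDR summits, more than kin-20, at pooled signals of 106.0, 47.2, 35.8 and 32.3. The strongest of them lay 2358 bp upstream of the gene and was in the top list of every replicate. No peak of replicate 1 covered the summits at 35.8 and 32.3. They ranked 1548 and 2158 in replicate 2, and 255 and 656 in replicate 3.

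The microRNA cofactor genes nhl-2 and ain-1 each had 1 promoter summit in all 3 top lists, at 101.6 (rank 27) and 58.7 (rank 168). The nhl-2 summit is shared with the locus of its neighbour tag-340, and the ain-1 summit with that of F59C12.3. The lin-66 summit, 428 bp upstream at 41.5, ranked 3602, 11195 and 156 in the replicates and so rested on replicate 3. The membrane-bound transcription factor genes myrf-1 and myrf-2 had summits of 38.2 and 39.0, and the second of these lay in the promoter and locus of nucb-1. The let-7 family gene mir-84 had an intergenic summit of 35.4 at 2393 bp upstream, shared with the locus of mboa-1. The mir-84 summit ranked 1710, 951 and 500 in the replicates, and the myrf-2 summit 1262, 3733 and 346. Both were thus in the top list of replicate 3 only. Among the 19 genes without an IDR summit were the microRNA genes lin-4, mir-48 and mir-241. Since lin-4 lies inside a protein-coding gene, only the gene itself was searched there.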

How the data were processed

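ChIP-seq of GFP-tagged EGL-27 was deposited as 1 relaxed peak list per replicate (3 in all, background peaks kept), 1 for the replicates pooled, and 1 optimal list after IDR thresholding by the authors. All lists of build ce11 were used. Peak height is column 7, a signal value from the authors' caller, and it served only to rank and describe peaks within a list. The −log10 q-value deposited by the authors has many ties at the top and was not used for ranking. Per the deposited library notes, the lists were made against the same control alignment. The aligner, the peak caller, the IDR threshold and the read depth are not given in the sources used here, and with no depth no error can be put on a single height.

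Genes were taken from Ensembl release 115 (WBcel235, the same build as ce11), and the microRNA names from the RefSeq gene table by identical coordinates. Chromosome names were matched after the prefix chr was removed, and no peak ended beyond the RefSeq sequence of its chromosome. Coordinates are 1-based. Loci stopped at the next protein-coding gene. A summit outside promoters (1000 bp upstream to 500 bp downstream of an annotated 5′ end) was assigned, in this order, to coding exon, untranslated region, intron, non-coding gene or intergenic sequence. Scripts ran in Python 3.11.15 with scipy 1.17.1 for the exact binomial interval and matplotlib 3.10.9, and the locus search was tested on simulated data. Alternatives were another upstream reach, stopping rule, promoter window, overlap rule, top-list size, the upper 50% of the IDR list, and leaving out each replicate.

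All samples form 1 group, so no test between groups was made, and counts are set beside all protein-coding genes as a description. All 10 genes are named with their values. Of the 27 other pathway genes, those named were every gene with an IDR summit and the first 3 listed without one. The 10 genes, this second list and the motifs were chosen with earlier results of these data known.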

Additional observations from a re-analysis of the deposited data

How the results depend on the processing

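Of 39 alternative values, 18 were labelled as the same as the reported one and 21 as moved. These labels are coarse, since a fall from 6 to 4 genes without replicate 3 was labelled the same. A share that went from 3.86% to 3.59% with 5000 bp was labelled moved. The 6 genes with an IDR summit were the same 6 under a reach of 5000 bp, a stop at the next gene of any kind, a 1 bp overlap of the peak in place of the summit, and the upper 50% of the IDR list. The 8 summits became 7 with a stop at the next gene of any kind, which left out the upstream summit of kin-20. They became 6 in the upper 50% of the IDR list. Without a stop at the next gene let-7 was added as a seventh gene. With only the upstream stretch 2 genes (lin-41 and kin-20) and 2 summits were left. The share of all protein-coding genes was 3.59% with 5000 bp, 8.21% without a stop, 3% with a stop at any gene, 3.04% for the upstream stretch and 1.93% for the upper 50% of the list. Leaving out a replicate, and asking for a top-list peak in both others, gave 3 to 5 genes, 4 to 5 summits and a share of 1.3% to 1.65%. That rule keeps 239 to 305 of the 705 IDR peaks, so it is stricter than the authors' list. Genes with an IDR summit in their own promoter numbered 4 with a window of 2000 bp (3.21% of all protein-coding genes), where lin-41 and kin-20 joined, 0 with only the outermost 5′ end (2%), and 0 to 1 without a replicate (0.756% to 0.871%). Genes with a top-list summit in every replicate numbered 6 with top lists of 1500 peaks (2.21%) and 3 to 5 without a replicate (1.58% to 1.86%). No paired analysis was possible because the series has a single group. Depth is unknown, so the absence of an IDR summit at lin-14, hbl-1, lin-29 and let-7 says only that none passed the authors' threshold.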
